A study of Mus musculus with 12 samples.

Results

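HOX genes and 12 further transcription factors of limb position and limb mesenchyme were examined in fibroblasts from the hindlimb muscle of newborn mice. They were chosen by symbol, as every gene named Hoxa, Hoxb, Hoxc or Hoxd with a number, together with Pitx1, Tbx4, Tbx5, Tbx15, Shox2, Prrx1, Prrx2, Meis1, Meis2, Lmx1b, Twist1 and Twist2. The deposited tables held 48 such genes of 28995, made up of 36 HOX genes and 12 limb factors. Hoxb1, Hoxd1 and Hoxd12 were not analysed here. Of the 48 genes, Hoxb13 was absent from the table of aldosterone and vehicle, which held 47.

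HOX genes stand in 4 clusters on separate chromosomes, and a gene's number (its paralogue number) follows its place in the cluster. Genes of low number act towards the head and genes of high number towards the tail and the tip of the limb, and fibroblasts are known to keep part of this code in culture. Pitx1 and Tbx4 are factors of the hindlimb, while Tbx5 is a factor of the forelimb. Prrx1, Prrx2, Twist1 and Twist2 mark limb and other loose mesenchyme, Shox2 patterns the part of the limb nearest the body, Lmx1b sets the dorsal side, Tbx15 acts in limb skeleton and muscle, and Meis1 and Meis2 are cofactors of HOX proteins.

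The cells were wild-type C57BL/10 fibroblasts, isolated at 3 days of age from 2 mice, enriched by adherence to plastic and used as primary cultures. All were held in medium with charcoal-stripped serum, which lacks endogenous steroids, and were then exposed for 48 h to 1 µM aldosterone, the natural agonist of the mineralocorticoid receptor (MR), to 1 µM spironolactone, a steroidal MR antagonist, or to vehicle (DMSO). Each treatment had 4 libraries of poly(A) RNA, labelled with a sample number (1 or 2) and a replicate number (1 or 2). The labels give 2 replicate plates per mouse and treatment without saying which number is the mouse, so p-values measure the spread between these plates and cover at most 2 mice. Values for a treatment are listed with the 2 libraries of sample number 1 before the 2 of sample number 2.

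Between 19136923 and 30219185 reads fell on genes in each library. Levels are given as RPKM (reads per kilobase of gene length, scaled to the reads on genes of each library with TMM factors), which allows genes to be compared. A gene was called on where its mean level over 12 libraries was at least 1 and every library had more than 3 reads. All 9 fibroblast markers listed were on, including Col1a1, Col1a2 and Pdgfra. Of 7 myogenic markers 1 was on, and Pax7, Myf5, Myog and Ckm never exceeded 3 reads. Of 6 macrophage markers 1 was on, with Ptprc and Adgre1 at or under 3 reads, and 0 of 3 keratinocyte markers were on. None of the 4 measured genes of head, heart or foregut position (Pax6, Nkx2-5 and Gata4 among them) was on. The steroid response gene Fkbp5 rose with aldosterone by 4.26 on the log2 scale (adjusted p = 4.02e-15). All 3 cartilage, 3 tendon and 3 mural markers were on as well. Among them Col2a1 had a level of 180, Tnmd 63.2, Scx 33.5 and Cspg4 29.9. Of 5 endothelial markers 1 was on, and of 4 Schwann cell markers 1. The defining markers of the labelled cell type were thus present, beside markers of cartilage, tendon and mural cells. In bulk samples fewer cells of a type and less RNA per cell cannot be told apart.

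Of the 48 genes 31 were on, 16 were low, and Hoxb13 had at most 2 reads in any library. The HOXC cluster was on throughout, with 9 of 9 genes, whereas HOXA had 7 of 11, HOXD 3 of 7 and HOXB 1 of 9. Of the 12 limb factors 11 were on. As a share of the summed HOX level, HOXC held 50.2%, HOXA 35.7%, HOXD 10.5% and HOXB 3.60%. Genes with paralogue numbers 9 to 13 held 71.2% of the summed HOX level, those with numbers 5 to 8 held 23.1% and those with numbers 1 to 4 held 5.76%. Among all 28995 genes, 41.3% had a mean level of at least 1.

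**Figure D1:**
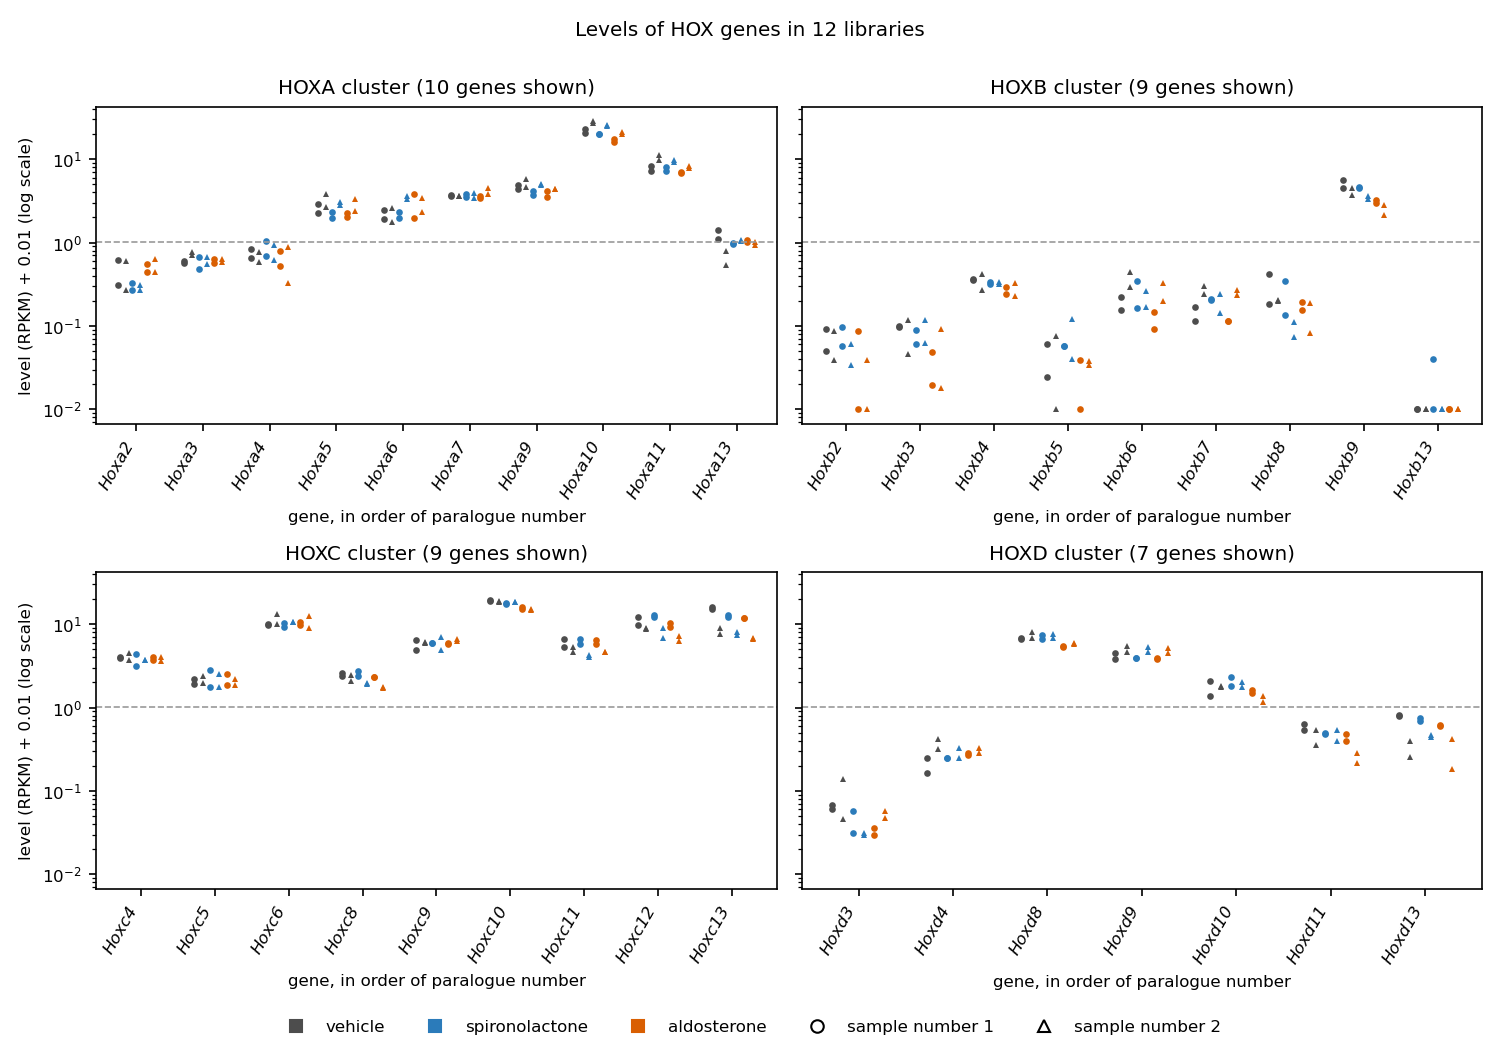
Level of 35 HOX genes (RPKM plus 0.01, log scale) in 12 libraries, with 1 panel per cluster and genes in order of paralogue number. Colours stand for treatments, circles for sample number 1, triangles for sample number 2 and the dashed line for the level of 1. All 9 HOXC genes lie above the line, and of the HOXB genes only Hoxb9 does.

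Within HOXA, the level was highest at Hoxa10, which acts in the part of the limb nearest the body. Hoxa10 had a level of 22.1 ± 3.84 (SD, n = 12), with a lowest library of 16.2, a median of 20.9 and a highest of 28.4. Hoxa11, which acts in the middle part of the limb, followed at 8.38 ± 1.40 (SD, n = 12), ranging from 6.79 to 11.3. Hoxa13, the gene of the hand and foot plate, fell just under the limit for on at 0.985 ± 0.201 (SD, n = 12). Towards the other end of the cluster Hoxa2, Hoxa3 and Hoxa4 lay between 0.411 and 0.711. The level along HOXA was thus highest at paralogue 10 and lower on both sides of it.

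HOXC differed in that its genes stayed on up to paralogue 13. Hoxc10 was its highest gene, at 17.5 ± 1.70 (SD, n = 12) with a range of 14.8 to 19.7. Hoxc6, which acts further towards the head, reached 10.5 ± 1.2 (SD, n = 12). Hoxc13, otherwise known from hair follicles, nails and the tail, had 10.4 ± 3.30 (SD, n = 12), with a lowest library of 6.59, a median of 10.4 and a highest of 16.0. Hoxc12 had 9.46, Hoxc9 6.0, Hoxc11 5.33, Hoxc4 3.89, Hoxc8 2.22 and Hoxc5 2.15. Hoxc5 is the least certain of these, since its annotated span also covers Hoxc6, Hoxc8, Hoxc9 and Hoxc10.

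In HOXD the on genes were Hoxd8 at 6.60 ± 0.849, Hoxd9 at 4.48 ± 0.590 and Hoxd10 at 1.70 ± 0.331 (SD, n = 12 each). Hoxd11 at 0.437 and Hoxd13 at 0.526, both genes of the outer limb, were low, as were Hoxd3 and Hoxd4. In HOXB, Hoxb9 stood alone at 3.80 ± 0.981 (SD, n = 12), ranging from 2.14 to 5.6. The HOXB gene with the next highest level was Hoxb4 at 0.307. The genes that were on in HOXB and HOXD were therefore those around paralogue 8 to 10.

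The highest limb factors reached higher levels than any HOX gene. Prrx2 had a level of 120 ± 10.9 (SD, n = 12) and ranged from 103 to 137, with a median of 121. Twist1 had 61.1 ± 4.57 and ranged from 55.3 to 68.1, Pitx1 had 53.4 ± 7.91 and ranged from 40.7 to 67.8, and Prrx1 had 50.2 ± 3.31 and ranged from 45.4 to 54.9. Prrx2 lay above all other members in every library, the range of Pitx1 overlapped those of Twist1 and Prrx1, and all Twist1 libraries lay above all Prrx1 libraries. Tbx15 followed at 38.8 ± 1.29, Shox2 at 21.5 ± 3.82 and Tbx4 at 15.4 ± 1.18 (SD, n = 12 each).

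Of the factors that set limb type, those of the hindlimb were the higher. Tbx4 ranged from 13 to 17.2, with a median of 15.6, and Tbx5 from 1.62 to 2.40, with a median of 2.15, so the ranges of the hindlimb and forelimb paralogues did not overlap. Tbx5 was nevertheless on, with 173 to 300 reads per library. The remaining limb factors were near the limit for on. Lmx1b had a level of 2.10, ranging from 1.5 to 2.61, Meis2 had 2.02, ranging from 1.57 to 2.51, and Twist2 had 1.24, ranging from 0.802 to 2.21. Meis1 was low at 0.646, ranging from 0.439 to 0.867.

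**Figure D2:**
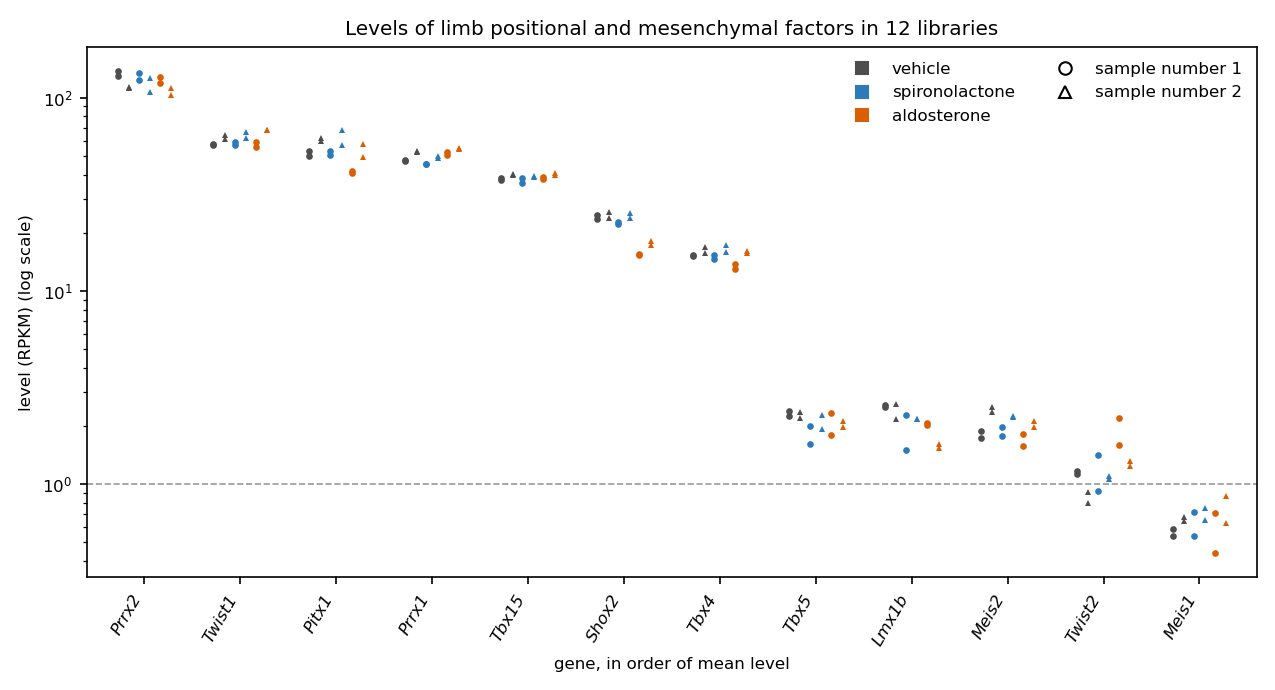
Level of each limb factor (RPKM, log scale) in 12 libraries, with colours for treatments, circles for sample number 1 and triangles for sample number 2. Prrx2 is the highest in every library, Meis1 lies under the dashed line at a level of 1, and all Tbx4 points lie above all Tbx5 points.

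Partner genes were examined by lists. All 7 HOX cofactors listed (Pbx2, Pbx3, Pbx4, Meis3, Pknox1 and Pknox2 among them) were on, with a summed level of 33 to 36.1. Of 9 noncoding RNAs of the HOX clusters 2 were on, Hotairm1 at 3.01 and Hoxa11os at 1.55. Hotair, transcribed within HOXC, had a level of 0.487, and Hottip never exceeded 3 reads. Of 42 other limb patterning genes 38 were measured and 24 were on.

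Whether the steroid moved these genes was asked in each pair of treatments with limma on log2(normalised count + 1) over all genes of the table. Calls were made at 0.05 for the adjusted p. With aldosterone against vehicle 6 of 47 members fell (12.8%), against 4.74% of all genes, and 1 rose (2.13%), against 5.68% of all genes. None changed by a log2 fold change of at least 1, which 1.4% of all genes did upwards and 0.666% downwards. Among genes with a mean normalised count of at least 10, 6 of 42 members fell (14.3%) against 9.27% of genes, and 1 rose (2.38%) against 10.6%. The median log2 fold change was −0.22 over the 47 members and −0.01 over all genes. Below 0 lay 34 of the 47 members (72.3%, against 51.0% of all genes).

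The genes that fell were Shox2, Hoxb9, Hoxc10, Hoxa10, Hoxd8 and Lmx1b, and Twist2 rose. With a replicate block for the sample number, Hoxa9, Hoxa11, Hoxc12, Hoxc13 and Pitx1 were called lower as well, giving 11 lower (23.4%, against 8.02% of all genes) and 1 higher (2.13%, against 8.68%). The block compares plates of the same sample number. Shares with the block, and those against spironolactone below, were not taken among genes with a mean normalised count of at least 10. Without the block, that limit gave 9.27% of genes lower in place of 4.74%. Of the 20 HOX genes that were on, 4 fell without the block, beside that 9.27% of genes. With the block 8 of the 20 fell, for which no such share was taken.

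Shox2 showed the clearest difference. Its level was 24.6, 23.6, 23.7 and 25.7 in the vehicle libraries, 22.1, 22.7, 23.8 and 25.3 with spironolactone, and 15.4, 15.6, 18.1 and 17.2 with aldosterone. Every aldosterone library lay below every other library. Its normalised count was 1303 ± 102 with aldosterone and 1925 ± 67.6 with vehicle (SD, n = 4 each), a log2 fold change of −0.56 ± 0.063 (SE, adjusted p = 1.24e-05), or 0.676-fold. The call was kept when any of the 8 libraries was left out. Shox2 lies at mm39 chr3:66879060-66889104 on the minus strand and shares 382 bases with Rsrc1 on the opposite strand. Rsrc1 itself had a log2 fold change of −0.07 (adjusted p = 0.590).

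Hoxc10, the highest HOXC gene, is known as a hindlimb HOX gene. Its level was 19.7, 19.0, 18.3 and 19.2 with vehicle, 18.0, 17.4, 18.7 and 18.6 with spironolactone, and 16.1, 15.4, 14.8 and 15.3 with aldosterone. The aldosterone libraries again did not overlap the others. The log2 fold change against vehicle was −0.31 ± 0.062 (SE, adjusted p = 0.00284), kept in all 8 fits that left out a library. The gene lies at mm39 chr15:102875231-102880328 on the plus strand, and 4451 of its bases fall in the span of Hoxc5, which had a log2 fold change of 0.00.

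Hoxb9 was the only HOXB gene on and had the largest fall among the members called. Its level was 4.55, 5.6, 3.70 and 4.49 with vehicle, 4.53, 4.65, 3.63 and 3.30 with spironolactone, and 2.98, 3.23, 2.80 and 2.14 with aldosterone. Aldosterone libraries were the lowest of all 12. The log2 fold change against vehicle was −0.72 ± 0.141 (SE, adjusted p = 0.00257). Without the block the call was lost on leaving out any of 4 libraries, namely aldosterone sample 2 replicate 1 and vehicle sample 1 replicates 1 and 2 and sample 2 replicate 2, with adjusted p up to 0.0630. With the block it was kept in all 8 such fits, with adjusted p up to 0.0177.

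Hoxd8, the highest HOXD gene, had levels of 6.82, 6.72, 6.77 and 7.99 with vehicle, 6.66, 7.33, 7.63 and 6.79 with spironolactone, and 5.45, 5.26, 6.01 and 5.71 with aldosterone. All 4 aldosterone libraries were below the other 8. The log2 fold change against vehicle was −0.34 ± 0.082 (SE, adjusted p = 0.0123), and it was lost without aldosterone sample 1 replicate 2 (adjusted p = 0.0592). Hoxd3os1, a noncoding RNA on the opposite strand along the whole gene, had a median of 20 reads.

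Hoxa10, the highest HOX gene of all, had levels of 23.3, 20.5, 27.1 and 28.4 with vehicle and 16.2, 17.3, 20.1 and 21.4 with aldosterone. The treatments overlapped across sample numbers, and within each sample number every aldosterone library was below every vehicle library. The log2 fold change was −0.41 ± 0.099 (SE, adjusted p = 0.0129 without the block and 2.11e-07 with it). Without the block the call was kept only on leaving out vehicle sample 1 replicate 2, with adjusted p up to 0.179 in the other 7 fits, and with the block it was kept in all 8. With spironolactone the levels were 20.1, 19.8, 25.2 and 25.6.

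Lmx1b, the dorsal factor, had levels of 2.56, 2.50, 2.61 and 2.19 with vehicle and 2.07, 2.01, 1.55 and 1.62 with aldosterone. The groups did not overlap, and the log2 fold change was −0.45 ± 0.114 (SE, adjusted p = 0.0153). The call was kept in 2 of 8 fits that left out a library (adjusted p up to 0.114, without aldosterone sample 2 replicate 2) and in 8 of 8 with the block. It was lost without any aldosterone library except sample 1 replicate 1 and without any vehicle library except sample 2 replicate 2. Its levels with spironolactone were 2.27, 1.5, 2.18 and 2.17, of which 1.5 lay below all vehicle and aldosterone libraries.

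Twist2, a repressor of mesenchymal differentiation, was the only member that rose. Its level was 1.17, 1.12, 0.802 and 0.914 with vehicle, 1.42, 0.926, 1.06 and 1.1 with spironolactone, and 2.21, 1.60, 1.24 and 1.31 with aldosterone. Aldosterone libraries all lay above the vehicle libraries. The log2 fold change was 0.63 ± 0.193 (SE, adjusted p = 0.0467), which was lost without any 1 of the 8 libraries (adjusted p up to 0.219) and kept in 8 of 8 such fits with the block. Its paralogue Twist1, with mean levels of 59.7 in vehicle, 61.0 in spironolactone and 62.7 in aldosterone libraries, had a log2 fold change of 0.06 (95% interval from −0.09 to 0.21).

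**Figure D3:**
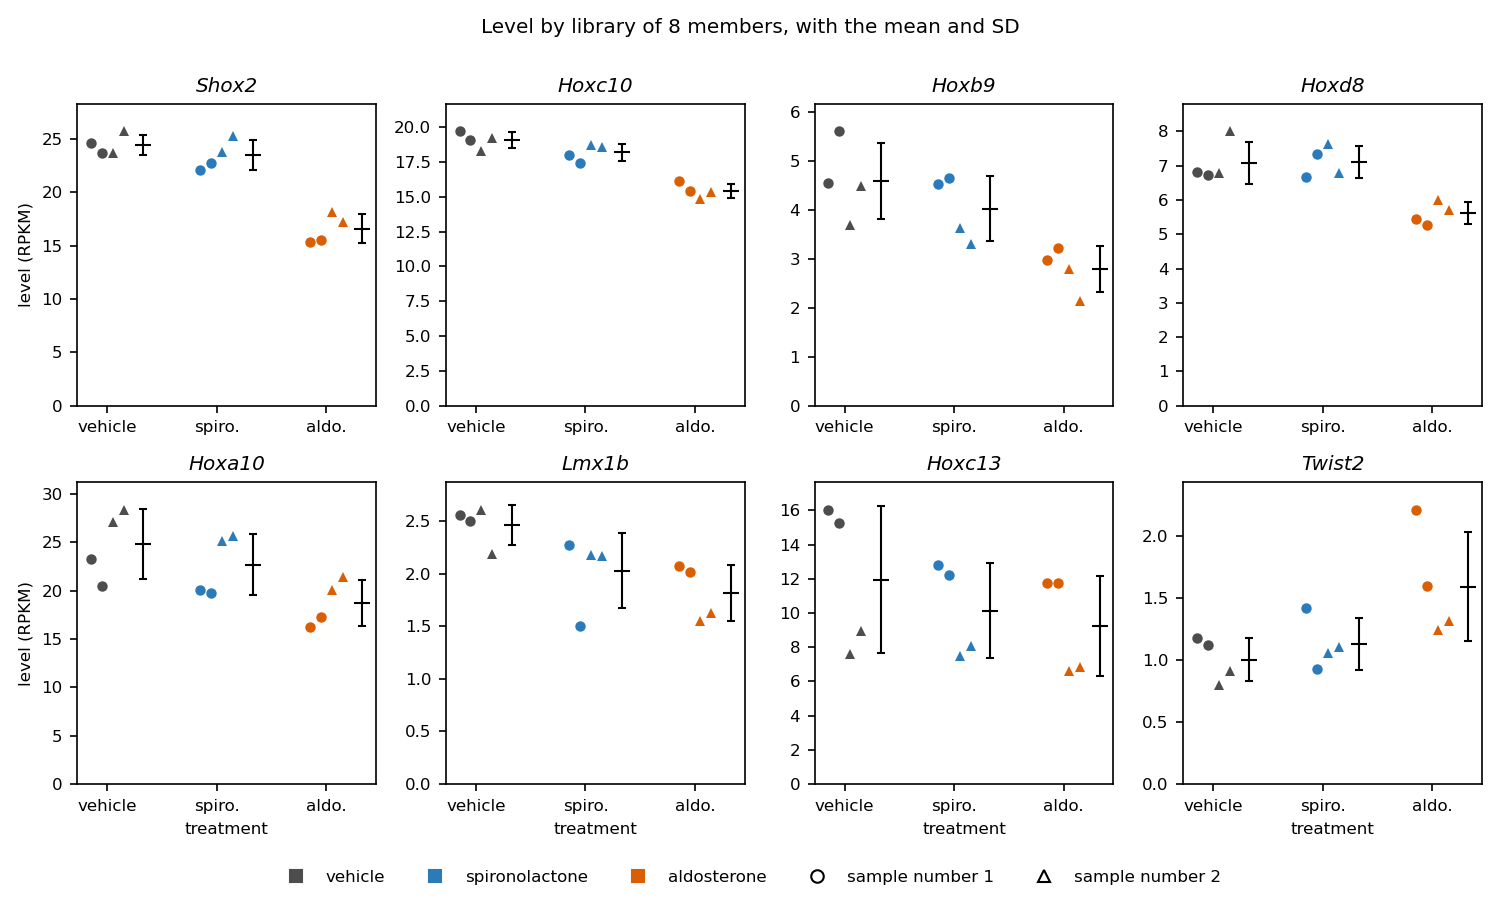
Level (RPKM, axes from 0) of 8 genes in each library by treatment, with the mean and SD of the 4 libraries of a treatment as a bar. Circles are sample number 1 and triangles sample number 2. For Shox2, Hoxc10, Hoxb9 and Hoxd8 every aldosterone point is under every vehicle and spironolactone point, and for Hoxc13 the sample numbers are further apart than the treatments.

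The 5 genes called with the block alone also differed between sample numbers. Hoxc13 had levels of 16.0, 15.2, 7.59 and 8.95 with vehicle and 11.8, 11.8, 6.59 and 6.82 with aldosterone. Within each sample number the aldosterone libraries were lower, and the log2 fold change of −0.36 had an adjusted p of 0.437 without the block and 0.000102 with it. It was called with the block in all 8 fits that left out a library. Its levels with spironolactone were 12.8, 12.2, 7.48 and 8.07.

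Pitx1, the hindlimb determinant, had levels of 53.0, 49.7, 61.9 and 59.6 with vehicle, 50.2, 53.0, 67.8 and 56.6 with spironolactone, and 41.6, 40.7, 57.9 and 49.2 with aldosterone. Its log2 fold change against vehicle was −0.26 (adjusted p = 0.123 without the block and 0.000217 with it), and with the block it was kept in 3 of 8 fits that left out a library. Hoxa9 (log2 fold change −0.28), Hoxa11 (−0.27) and Hoxc12 (−0.29) had adjusted p of 0.0731, 0.218 and 0.299 without the block and 0.00532, 0.0132 and 0.0449 with it. With the block they were kept in 2, 1 and 1 of 8 fits that left out a library. The blocked calls of Pitx1, Hoxa9, Hoxa11 and Hoxc12 therefore depended on single libraries, with adjusted p up to 0.0790, 0.172, 0.189 and 0.218.

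The other limb type factors were not called in either fit. Tbx4 had levels of 15.4, 15.2, 15.7 and 16.8 with vehicle and 13, 13.7, 15.7 and 16.0 with aldosterone. Its log2 fold change was −0.12 with a 95% interval from −0.27 to 0.03 (adjusted p = 0.384). Tbx5 had levels of 2.26, 2.40, 2.20 and 2.36 with vehicle and 2.33, 1.80, 2.11 and 1.98 with aldosterone, and a log2 fold change of −0.17 with an interval from −0.38 to 0.04 (adjusted p = 0.366). For Tbx15 the interval was −0.09 to 0.12, for Prrx2 −0.26 to 0.07, for Prrx1 −0.04 to 0.20 and for Meis2 −0.43 to 0.06. In all, 19 of the 31 genes that were on were called in neither fit, with log2 fold changes from −0.31 to 0.36 and 95% intervals that reached from −0.71 to 0.87.

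A single gene can reach no exact permutation p below 0.0286 with 4 libraries against 4. With aldosterone against vehicle, Shox2, Hoxc10, Hoxb9, Hoxd8, Lmx1b, Twist2 and Hoxa9 had this smallest exact p, and Hoxa10 had an exact p of 0.0571. The share of all genes that reach it was not taken.

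The promoters of genes that moved are shown because aldosterone acts through a receptor that binds DNA. RefSeq windows (build GRCm38.p6) of the 250 bases before a transcription start were matched to 28 of the 48 genes, in 30 windows. Those of Shox2 (chr3:66981772-66982021, minus strand), the gene that changed most clearly, of Hoxd8 (chr2:74704365-74704614, plus strand), which fell against both other treatments, and of Twist2 (chr1:91801211-91801460, plus strand), which rose, are printed with the receptor hexamer AGAACA, or TGTTCT on the other strand, in capitals. No window was held for Hoxc10 or Hoxb9.
Shox2: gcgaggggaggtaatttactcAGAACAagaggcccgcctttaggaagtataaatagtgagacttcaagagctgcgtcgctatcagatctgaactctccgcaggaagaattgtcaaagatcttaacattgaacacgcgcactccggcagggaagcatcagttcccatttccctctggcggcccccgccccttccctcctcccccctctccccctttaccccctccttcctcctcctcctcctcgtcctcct
Hoxd8: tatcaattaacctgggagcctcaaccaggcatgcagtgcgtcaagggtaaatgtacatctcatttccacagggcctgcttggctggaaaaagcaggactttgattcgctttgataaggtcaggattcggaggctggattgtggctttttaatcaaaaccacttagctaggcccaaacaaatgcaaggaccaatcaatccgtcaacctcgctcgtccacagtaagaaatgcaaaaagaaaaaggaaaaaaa
Twist2: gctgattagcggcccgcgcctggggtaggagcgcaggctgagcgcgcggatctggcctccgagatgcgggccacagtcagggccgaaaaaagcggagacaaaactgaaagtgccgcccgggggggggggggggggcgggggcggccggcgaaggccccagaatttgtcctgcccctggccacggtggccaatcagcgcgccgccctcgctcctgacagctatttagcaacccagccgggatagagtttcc
The hexamer stood in the Shox2 window, 229 bases before the start, and not in those of Hoxd8 and Twist2 or the 2 windows of Hoxa10 and the window of Lmx1b. It occurred in 3 of the 30 windows of these genes (10%, the others being Hoxa9 and Hoxa11) and in 16.1% of 32851 windows of all genes. The hexamer followed after 3 bases by its reverse complement, the full palindrome, was in 0 of the 30 windows and in 3 of all windows.

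Aldosterone was next set against spironolactone, a steroid of related structure at the same dose and time, in which the aldosterone libraries are the same as above. Of 48 members 4 were lower with aldosterone (8.33%, against 3.96% of all genes) and 0 higher (against 4.93%; 10 members had an unadjusted p under 0.05 in either direction, and DESeq2 called Prrx1 and edgeR Hoxa2 higher). None passed a log2 fold change of at least 1, which 1.38% of all genes did upwards and 0.521% downwards. The genes called were Shox2 at −0.50 ± 0.067 (SE, adjusted p = 5.31e-05), Hoxd8 at −0.34 ± 0.078 (adjusted p = 0.00897), Hoxb9 at −0.53 ± 0.141 (adjusted p = 0.0232) and Hoxc10 at −0.24 ± 0.063 (adjusted p = 0.0237). The groups did not overlap for any of the 4.

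Shox2 and Hoxd8 were called in all 8 fits that left out a library. Hoxc10 was called in 5 of 8, lost without aldosterone sample 2 replicate 1 or spironolactone sample 2 replicates 1 or 2 (adjusted p up to 0.0546), and Hoxb9 in 0 of 8 (adjusted p up to 0.221). With the block all 4 were kept in 8 of 8 fits. The block added Hoxa10 (−0.27, adjusted p = 6.17e-05), Hoxc12 (−0.29, adjusted p = 0.0486) and Pitx1 (−0.27, adjusted p = 0.000289) as lower, so that 7 members fell (14.6%, against 6.8% of all genes). It also added Prrx1 (0.16, adjusted p = 0.00403) and Twist2 (0.47, adjusted p = 0.0386) as higher, or 4.17% against 7.58% of all genes. Among these 5, Hoxa10 and Prrx1 were kept with the block in 8 of 8 fits, Pitx1 in 2, Hoxc12 in 1 and Twist2 in 0.

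Side by side, Shox2 was −0.56 against vehicle and −0.50 against spironolactone, Hoxd8 −0.34 and −0.34, Hoxc10 −0.31 and −0.24, and Hoxb9 −0.72 and −0.53. Lmx1b was −0.45 against vehicle and −0.15 against spironolactone, where it was not called (adjusted p = 0.640). Hoxc13, Hoxa9 and Hoxa11, called lower against vehicle with the block, were −0.15, −0.10 and −0.17 against spironolactone. None of these was called there with the block (adjusted p = 0.144, 0.425 and 0.113).

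Spironolactone against vehicle called 0 of 48 members in limma, and 0 of all 27598 genes (0% in each direction). An unadjusted p under 0.05 was reached by 2 members, Lmx1b and Tbx5 (both lower with spironolactone), and by 1251 genes. With the block, DESeq2 or edgeR 0 members were called, while DESeq2 called 12 genes higher and 1 lower and the block called 0.228% of all genes higher and 0.123% lower. Over the 31 genes that were on, log2 fold changes ran from −0.30 to 0.33, and 95% intervals reached from −0.65 to 0.82. Below 0 lay 32 of the 48 members (66.7%, against 49.2% of all genes). Of the 31 genes on 22 did, as many as with aldosterone against vehicle. The vehicle libraries are the same in both comparisons. Shox2 had a log2 fold change of −0.06 with an interval from −0.18 to 0.06, Hoxd8 0.00 with an interval from −0.16 to 0.17, and Hoxc10 −0.07 with an interval from −0.20 to 0.05. These 3 intervals leave out the log2 fold change of the same gene with aldosterone against vehicle. The interval of Lmx1b, from −0.55 to −0.04 around −0.30, does not leave out its −0.45 with aldosterone against vehicle. The groups of libraries overlapped for each of the 31 genes. The same share over all genes was not taken, so this count shows nothing particular to the members.

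**Figure D4:**
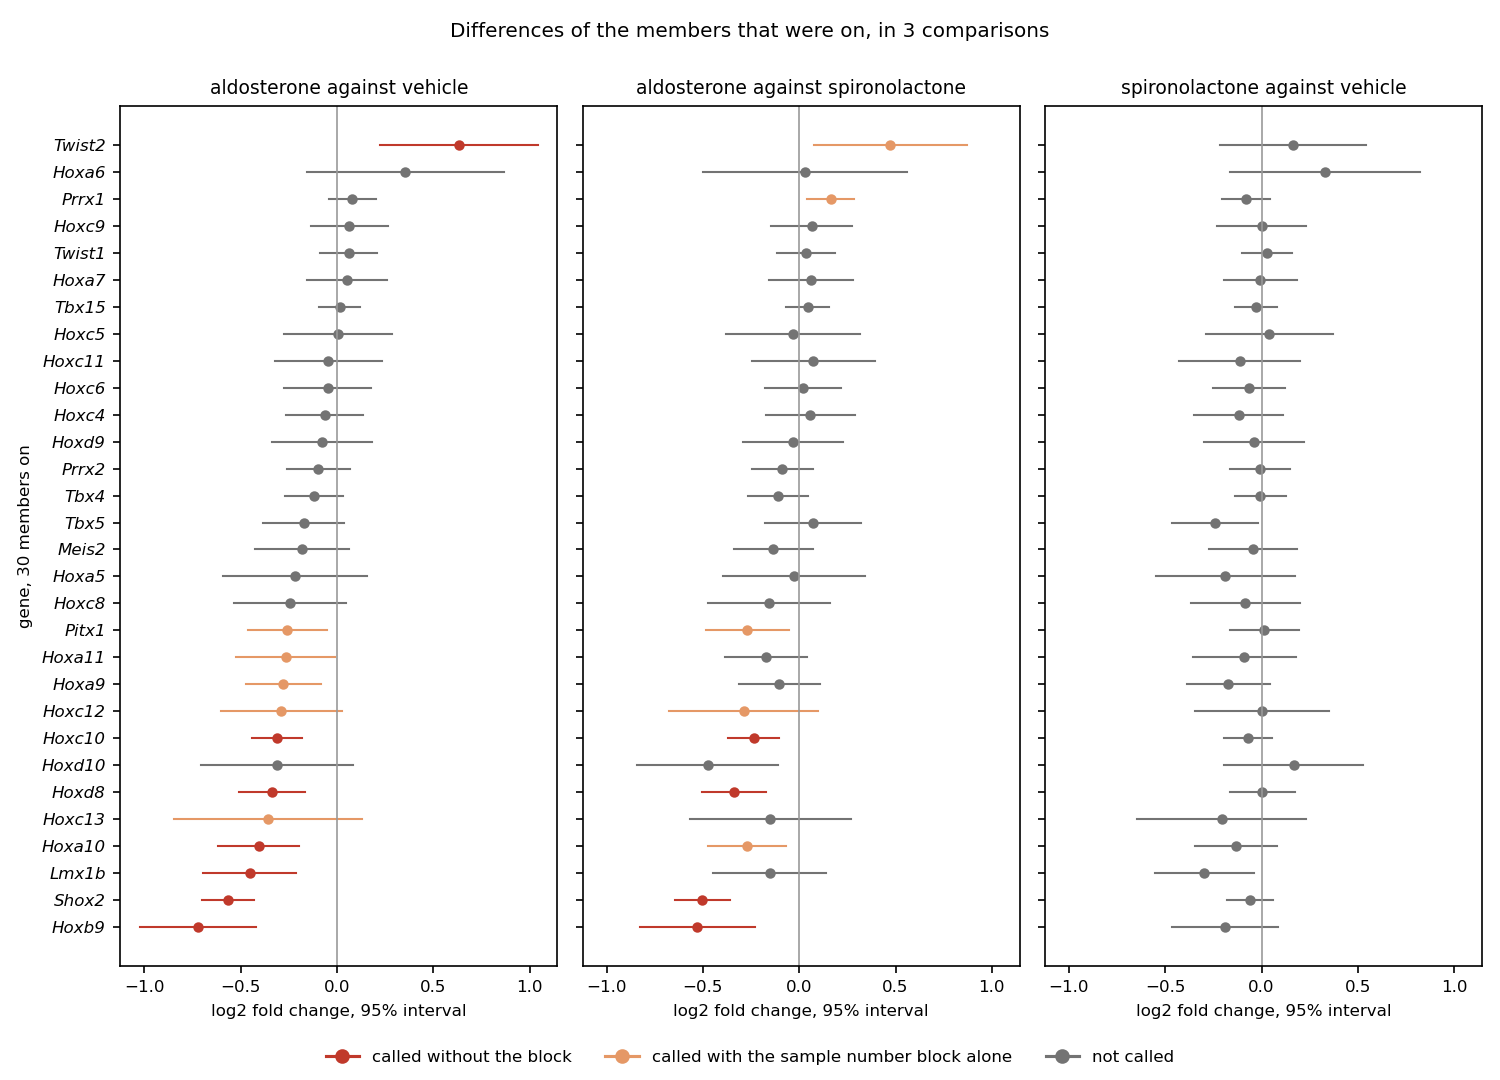
Log2 fold change (points) with its 95% interval (lines) of 30 of the 31 genes that were on, in 3 comparisons, ordered by the change with aldosterone against vehicle. Genes called without the block are red, genes called with the sample number block alone are orange and others are grey. Most genes lie left of 0 in the panel of aldosterone against vehicle, where 22 of the 30 shown do. In the panel of spironolactone against vehicle no gene is called, and most genes lie left of 0 there too.

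Cell type markers moved with the treatment too. For comparison, 5.68% of all genes rose and 4.74% fell with aldosterone against vehicle, or 8.68% and 8.02% with the block. Among genes with a mean normalised count of at least 10, 10.6% rose and 9.27% fell without the block. Of 3 tendon markers, all on, Scx and Tnmd fell with aldosterone against vehicle, and the summed level was 80.8 to 87.1 with aldosterone, 107 to 124 with vehicle and 102 to 119 with spironolactone. Among 3 cartilage markers, all on, Sox9 rose. Without the block Col2a1 (0.52, limma adjusted p = 0.314) and Acan (−0.43, adjusted p = 0.189) were not called. The summed level of the 3, most of it Col2a1, was 179 to 349 with aldosterone, 119 to 262 with vehicle and 114 to 246 with spironolactone. Pdgfra and Vim rose and Col3a1 fell among the 9 fibroblast markers, whose summed level was 5829 to 6469 with aldosterone and 6513 to 7007 with vehicle. Of 5 endothelial markers Kdr rose, of 4 Schwann cell markers S100b rose, and 0 of 3 mural, 5 myogenic, 6 macrophage and 3 keratinocyte markers tested were called (2 mural and 0 of the others had an unadjusted p under 0.05, edgeR called 0 of the 8 it tested, and DESeq2 called Notch3 lower). With the sample number block, 7 fibroblast markers fell and 2 rose, all 3 tendon markers fell, Col2a1 and Sox9 rose and Acan fell among the cartilage markers, Kdr and Tek rose, and the mural markers Cspg4 and Notch3 fell. Calls of the Schwann cell, myogenic, macrophage and keratinocyte lists were 1, 0, 0 and 0 with the block. The part of these markers in the falls of Shox2 and the HOX genes was not tested.

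Genes that act on or beside the HOX clusters were counted with aldosterone against vehicle. In that comparison 5.68% of all genes rose and 4.74% fell, or 8.68% and 8.02% with the block. Among genes with a mean normalised count of at least 10, 10.6% rose and 9.27% fell without the block. Of 24 Polycomb and Trithorax genes, whose products hold HOX clusters silent or active, 1 rose and 4 fell. Ezh1, a histone methyltransferase, rose by a log2 fold change of 0.74 (adjusted p = 2.81e-07). Its paralogue Ezh2 had −0.50 (adjusted p = 0.000471), their partner Suz12 −0.32 (adjusted p = 0.00254), the accessory factor Jarid2 −0.34 (adjusted p = 0.00996) and the demethylase Kdm6b −0.30 (adjusted p = 0.0132). Of 10 genes beside the clusters that were tested, Skap2, next to HOXA, rose and Lnpk, next to HOXD, fell (−0.39, adjusted p = 0.000703). Of 7 cofactors and of 9 cluster RNAs 0 were called in limma without the block, in edgeR or in DESeq2 (1 of each list had an unadjusted p under 0.05), and with the block 1 cofactor was called lower and 0 cluster RNAs were called. Among 38 other limb patterning genes, Gli2 (0.67) and Osr1 (0.24) rose, and Irx3 (−0.80), Tbx18 (−0.32) and Ptch1 (−0.29) fell. With the block 3 Polycomb and Trithorax genes rose and 6 fell, and 5 of the other limb patterning genes rose and 6 fell. Calcoco1 beside HOXC then rose as well as Skap2. Whether any of these lists exceeded the shares of all genes was not tested.

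Members were also compared between sample numbers. Over all 12 libraries with treatment as a covariate, 11 of 42 members tested were higher with sample number 2 (26.2%, against 10.4% of all genes) and 8 lower (19%, against 11.6% of all genes). Of the 4 HOXA genes with numbers 9 to 13, 3 were higher, whereas of the 5 such HOXC genes 3 were lower. Calls in HOXA and in HOXC at these paralogue numbers thus went in opposite directions. Of the 4 such HOXD genes 1 was higher and 1 lower, and the 1 such HOXB gene tested was lower. The fit has 6 libraries a side, against 4 in the fits of treatments, so the counts of calls are not on the same footing.

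Hoxc13 had the largest difference among members on. Its level with sample number 1 had a lowest of 11.8, a median of 12.5 and a highest of 16.0, and with sample number 2 a lowest of 6.59, a median of 7.54 and a highest of 8.95. The groups did not overlap over all libraries or in any treatment, and the log2 difference was −0.81 ± 0.054 (SE, adjusted p = 2.50e-10). Hoxd13, at low level, was 0.587 to 0.793 with number 1 and 0.175 to 0.464 with number 2 (−0.99 ± 0.201, adjusted p = 0.000925). Hoxc12 was 9.21 to 12.9 and 6.34 to 8.93 (−0.50 ± 0.087, adjusted p = 0.000176).

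Hoxc11 was lower with number 2 by −0.41 (adjusted p = 0.000709), Hoxb9 by −0.35 (adjusted p = 0.00366), Hoxc8 by −0.32 (adjusted p = 0.0111) and Prrx2 by −0.20 (adjusted p = 0.000672). Higher with number 2 were Hoxa10 (0.33, adjusted p = 7.48e-07), Hoxa11 (0.34, adjusted p = 0.000269), Hoxa9 (0.23), Hoxa5 (0.38) and Hoxd9 (0.30). Of the limb factors Pitx1 (0.29, adjusted p = 4.93e-05), Meis2 (0.32, adjusted p = 0.000149), Twist1 (0.18), Tbx4 (0.16), Prrx1 (0.12) and Shox2 (0.12) were also higher. Hoxa10 ranged from 16.2 to 23.3 with number 1 and from 20.1 to 28.4 with number 2, and Pitx1 from 40.7 to 53.0 and from 49.2 to 67.8, so these overlapped over all treatments and were separate within each treatment. Hoxa5, Hoxc8, Shox2 and Tbx4 were not called with the vehicle and spironolactone libraries alone, with adjusted p of 0.0636, 0.122, 0.195 and 0.104.

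Leaving out single libraries changed the calls of Hoxa5 (adjusted p = 0.0549 without vehicle sample 2 replicate 2 and 0.0630 without aldosterone sample 2 replicate 1) and of Shox2 (0.0622 and 0.0874 without aldosterone sample 1 replicate 2 or sample 2 replicate 1, and 0.0537 and 0.0762 without spironolactone sample 1 replicate 1 or sample 2 replicate 2).

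**Figure D5:**
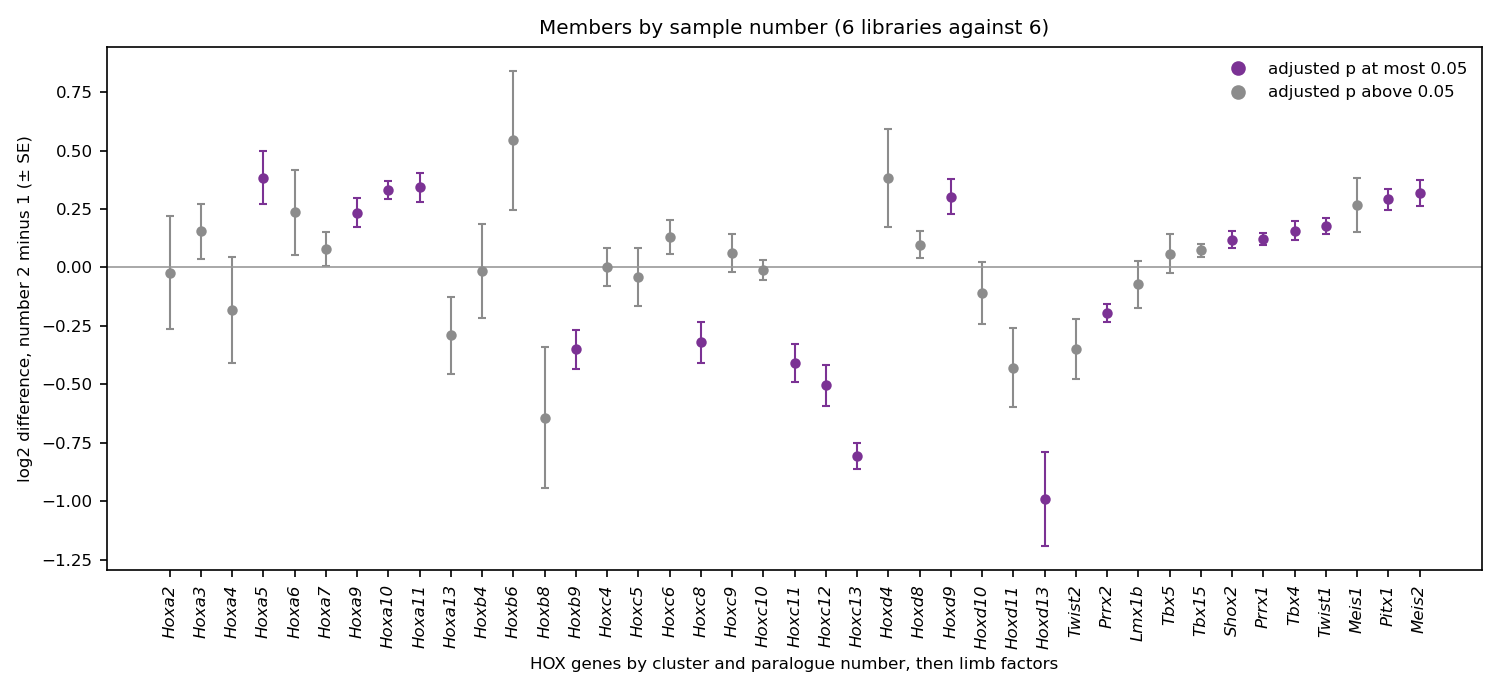
Log2 difference between sample number 2 and sample number 1 (points, with SE) of 41 of the 42 genes tested, over 6 libraries against 6 and with treatment as a covariate. Purple points passed an adjusted p of 0.05. Hoxa9, Hoxa10 and Hoxa11 lie above 0, and Hoxc11, Hoxc12 and Hoxc13 below it.

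Markers of other cells differed between sample numbers as well. The 3 cartilage markers, Sox9, Acan and Col2a1, had a summed level of 114 to 192 with number 1 and 233 to 349 with number 2, without overlap, and Acan and Col2a1 were called higher. Des and Myh3 of the myogenic list, Kdr of the endothelial list and Cspg4 and Rgs5 of the mural list were lower with number 2. The summed myogenic level was 1.1 to 1.70 with number 1 and 0.737 to 1.13 with number 2. Of 32 other limb patterning genes tested, 4 were higher and 7 lower, beside 10.4% and 11.6% of all genes. Cell makeup, the mouse and the culture cannot be told apart in these differences.

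An aldosterone effect that differed between sample numbers was tested as an interaction. It was called for 0 of 47 members in limma, with 0 members at an unadjusted p under 0.05 and 0 called by edgeR, and for 0.00732% of all genes in each direction. For Shox2 the difference of the log2 fold changes was 0.15 (adjusted p = 0.895) and for Hoxc10 −0.03 (adjusted p = 0.986).

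Overlapping annotation limits some of these values, because it is not stated whether reads were counted by strand. Of the 48 genes 28 overlap another listed gene, 21 on the opposite strand and 17 on the same strand. Hoxa3 spans Hoxa4, Hoxa5 and Hoxa6, Hoxd3 overlaps Hoxd4, and Hoxa11 overlaps Hoxa11os. Reads in the common stretches may have been counted for either gene or for neither, and the effect on these levels was not measured.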

How the data were processed

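Poly(A) RNA of neonatal mouse hindlimb fibroblasts was sequenced in 12 libraries, 4 per treatment. Per the submitters' processing notes, reads were aligned with HISAT2 (2.0.5) to mm39 and counted with featureCounts (1.5.0-p3), while the paper's methods name another build; the files' gene starts differ from those of the older builds. The authors deposited 3 tables, 1 for every 2 treatments, whose values (a signal here) are counts per gene after division by DESeq2 size factors. The tables also hold the authors' fold changes and p-values, which were not used. Whole reads were recovered from all values (100%, within a tolerance of 0.01).

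Each pair was fitted with limma (3.58.1, in R 4.3.3) on log2(value + 1) with a variance trend, over all genes of its table, and p-values were Benjamini-Hochberg adjusted over that table. Sample numbers were compared on log2 CPM with TMM factors from edgeR (4.0.16) and a prior count of 2. Deviations of libraries with the same sample number correlated across genes (mean r = 0.205, lowest 0.114, over 24 pairs), so the labels' sample number was also used as a block. Counts were simulated for aldosterone against vehicle. On these, limma recovered 55 of 66 genes changed by 0.5 on the log2 scale and 67 of 67 changed by 1. There were 25 false calls among 27119 unchanged genes (27319 in all). The changed genes were drawn from those of higher count. All genes had the same fixed spread and no difference between sample numbers. Recovery for members of low count, wider spread or a difference between sample numbers was therefore not measured. Alternatives were DESeq2 (1.42.0) and edgeR on recovered reads, TMM scaling, a pseudocount of 0.5, a mean of at least 10 and leaving out each library; edgeR with the block, and leaving out libraries with the block, were chosen after seeing the data. The genes named are all members, with those called in any comparison, the highest of each cluster and the limb factors in full. Members and lists were chosen with earlier results of these data known. Results on some single genes are not reported here, although the counts include them.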

Additional observations from a re-analysis of the deposited data

Results flagged for a closer look

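In 93 sets of 4 libraries of 1 gene and treatment, 3 had a library far from the others, and chance alone gives about 1 in 20. The level (RPKM) of Hoxc6 was 13.1 in vehicle sample 2 replicate 2 and 9.85, 9.93 and 10.1 in the other vehicle libraries. In the same library Hoxd8 had a level of 7.99, against 6.72, 6.77 and 6.82 in the others. Lmx1b had a level of 1.5 in spironolactone sample 1 replicate 2 and of 2.17, 2.18 and 2.27 in the other spironolactone libraries.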

How the results depend on the processing

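The count of members lower with aldosterone against vehicle was 6, and 11 with a replicate block for the sample number, 12 in edgeR with the block, and 3 to 5 on leaving out a library. The count higher was 1 and 0 to 0 on leaving out a library. With aldosterone against spironolactone, 4 were lower, 7 with the replicate block, 8 in edgeR with the block and 2 to 3 on leaving out a library. The count higher was 0, 2 with the block, 1 in edgeR, 3 in edgeR with the block and 1 in DESeq2. On leaving out a library with the block kept, the count of members lower was 7 to 9 against vehicle and 5 to 7 against spironolactone, where the count higher was 1 to 1. The block changed no other count of members called between treatments, and its calls in the other gene lists stand beside their counts. With a level of at least 5, 16 genes were on in place of 31. Without spironolactone sample 1 replicate 1 the log2 fold change of Tbx5 against spironolactone was −0.014 in place of 0.07 (−0.014 to 0.15 on leaving out each library), and the cause was not tested. Some levels rest on few reads, such as 30 to 78 per library for Hoxa6, and p-values cover 2 mice at most.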
